A study of Mus musculus with 26 samples.

Results

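Glutathione is the main soluble thiol of animal cells, and 7 genes of its synthesis, recycling and turnover, together with the importer of its scarce building block, were followed through heat, oxidative and osmotic stress. Slc7a11, Gclc, Gclm, Gss, Gsr, Ggct and Chac2 were taken by symbol, and all 7 were found among the 20430 gene symbols of the RNA tables and the 19941 symbols of the footprint tables. The cells were NIH3T3, an immortalised mouse embryonic fibroblast line without a labelled genetic change. PolyA-selected RNA was sequenced in 8 groups of 2 libraries. The heat experiment held its own control, cells at 44 °C for 2 h and cells at 42 °C for 8 h. The other experiment held a control shared by cells given H2O2, an oxidant, for 2 h or 7 h and cells given KCl, a salt that raises osmolarity, for 2 h or 7 h. Ribosome-protected mRNA fragments, called footprints, were sequenced in the 5 groups of the H2O2/KCl experiment, also in 2 libraries each. The labels give no concentration of H2O2 or KCl, no handling of the controls, and no statement on whether replicates were separate cultures, so p-values measure only the spread between these libraries. The study asked, by its title, how stress-induced transcription past gene ends into neighbouring genes relates to intron retention.

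The pathway begins at the membrane. Slc7a11 encodes xCT, which exchanges intracellular glutamate for extracellular cystine and works as a dimer with the heavy chain encoded by Slc3a2. Cystine is reduced to cysteine, which glutamate-cysteine ligase joins to glutamate in the rate-limiting step. Gclc encodes the catalytic subunit of this ligase and Gclm its modifier subunit. Glutathione synthetase (Gss) adds glycine, glutathione reductase (Gsr) returns oxidised glutathione to the reduced form with NADPH, Chac2 cleaves glutathione in the cytosol, and Ggct handles gamma-glutamyl amino acids. In fibroblasts as in other cells, oxidants release the transcription factor NRF2 (Nfe2l2) from its inhibitor KEAP1, and NRF2 acts at antioxidant response elements of genes such as Gclm and Slc7a11. Amino acid shortage and other stresses raise translation of ATF4, which acts at C/EBP-ATF response elements, also at Slc7a11. Bach1 encodes a repressor at antioxidant response elements.

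Because the members differed in their RNA responses, the bases upstream of their annotated starts are shown for those in which a core of these elements was found. RefSeq sequences (assembly GRCm38.p6) were matched for 5 members, Slc7a11, Gclm, Gss, Ggct and Chac2. The 250 bases before each start were searched on both strands, so that a match may be printed as its reverse complement. For Gclm and Ggct the bases inside the gene extent were searched but are not printed. The motifs were TGACNNNGC (antioxidant response element core), TGATGNAA (C/EBP-ATF element core), TGANTCA (AP-1 site) and GAANNTTC (heat shock element core). Capitals mark the matches, positions are counted from the start site, and sequences run 5′ to 3′ on the strand of the gene. The Slc7a11 window lies at chr3:50443614-50443863 (minus strand), inside the extent of a longer annotated model of the gene, and holds 2 C/EBP-ATF cores at -66 to -59 and -47 to -40. The Gclm window lies at chr3:122245307-122245486 (plus strand), bases -250 to -71, with 1 antioxidant core at -134 to -126. The Ggct window lies at chr6:54992961-54993117 (minus strand), bases -250 to -94, with 1 antioxidant core at -174 to -166.
Slc7a11: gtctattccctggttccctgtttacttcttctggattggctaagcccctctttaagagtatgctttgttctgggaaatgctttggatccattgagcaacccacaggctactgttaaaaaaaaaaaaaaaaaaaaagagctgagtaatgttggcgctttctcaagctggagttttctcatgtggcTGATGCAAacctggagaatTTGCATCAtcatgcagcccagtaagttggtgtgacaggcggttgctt
Gclm: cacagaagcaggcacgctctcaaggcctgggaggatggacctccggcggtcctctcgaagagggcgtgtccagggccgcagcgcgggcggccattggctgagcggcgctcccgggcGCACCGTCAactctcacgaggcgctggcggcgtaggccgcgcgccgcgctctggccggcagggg
Ggct: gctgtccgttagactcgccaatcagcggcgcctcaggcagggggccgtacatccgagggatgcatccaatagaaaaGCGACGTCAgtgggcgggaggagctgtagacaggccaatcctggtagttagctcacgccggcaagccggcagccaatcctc
The Gss and Chac2 windows held none of the 4 motifs, and no match overlapped a match to another motif. Of 32851 RefSeq windows of 250 bases, 10.161% held the antioxidant core, 3.4519% the C/EBP-ATF core, 6.7487% the AP-1 site and 6.6939% the heat shock core. A match is a description of letters and says nothing about binding in these cells.

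RNA libraries held 24441877 to 45244430 expected counts and footprint libraries 1460751 to 5168537, the lowest and the highest of the latter being replicates 1 and 2 of 2 h of H2O2. Replicates correlated across genes with r of 0.994 to 0.996 in RNA and 0.957 to 0.978 in footprints (genes are not independent replicates), and no pair of replicates agreed within counting noise. All 9 fibroblast markers examined were detected in each group, Col1a1 at 694 to 2835 TPM, while Epcam (epithelium), Ptprc (leukocytes) and Cdh5 (endothelium) stayed at or below 1.12, 0.05 and 0.09 TPM. Other markers of these types were detected, Krt18 at 6.46 to 17.19 TPM and the leukocyte marker Cd68 at 5.32 to 44.68 TPM. Csf1r was at 0.02 to 16.07 TPM, Kdr at 0.32 to 2.58 TPM and Pecam1 at up to 2.14 TPM. TPM divides the reads of a gene by transcript length and by the library total, and gives its level. The summed fibroblast markers went from 14368 to 14617 TPM in the H2O2/KCl control to 8014 to 8280 TPM at 7 h of H2O2, and the 3 leukocyte markers, summed, went from 9.65 to 10 TPM to 28.58 to 30.25 TPM at 2 h and 42.8 to 44.7 TPM at 7 h of H2O2, and to 18.02 to 21.4 TPM with KCl. Their part in the results was not tested. In these bulk samples, fewer cells that express a gene and less RNA per cell cannot be told apart.

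In RNA, the response differed by stress and by member. After 7 h of H2O2 all 7 genes were called higher than in the control, against 39.4% higher and 31.1% lower of 13256 genes tested. The Chac2 call among these (log2 0.31) was lost with DESeq2 (adjusted p 0.148) and with limma on log2(TPM + 1) (0.0761). After 2 h of H2O2 Slc7a11, Gclc and Gclm were higher, 3 of 7 against 27.3% of all genes. Both heat treatments lowered Slc7a11 and raised Gclc and Gclm. The Gclc call in the longer heat treatment was lost with limma on log2(TPM + 1) (adjusted p 0.0661). With 7 h of KCl Gclc, Gclm, Ggct and Chac2 were higher while Slc7a11, Gss and Gsr were lower. Here too the Chac2 call was lost with DESeq2 (adjusted p 0.143) and with limma on log2(TPM + 1) (0.116). Calls are those of edgeR's quasi-likelihood test with Benjamini-Hochberg adjustment over all genes at a threshold of 0.05, and fold changes are of normalized counts.

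**Figure D1:**
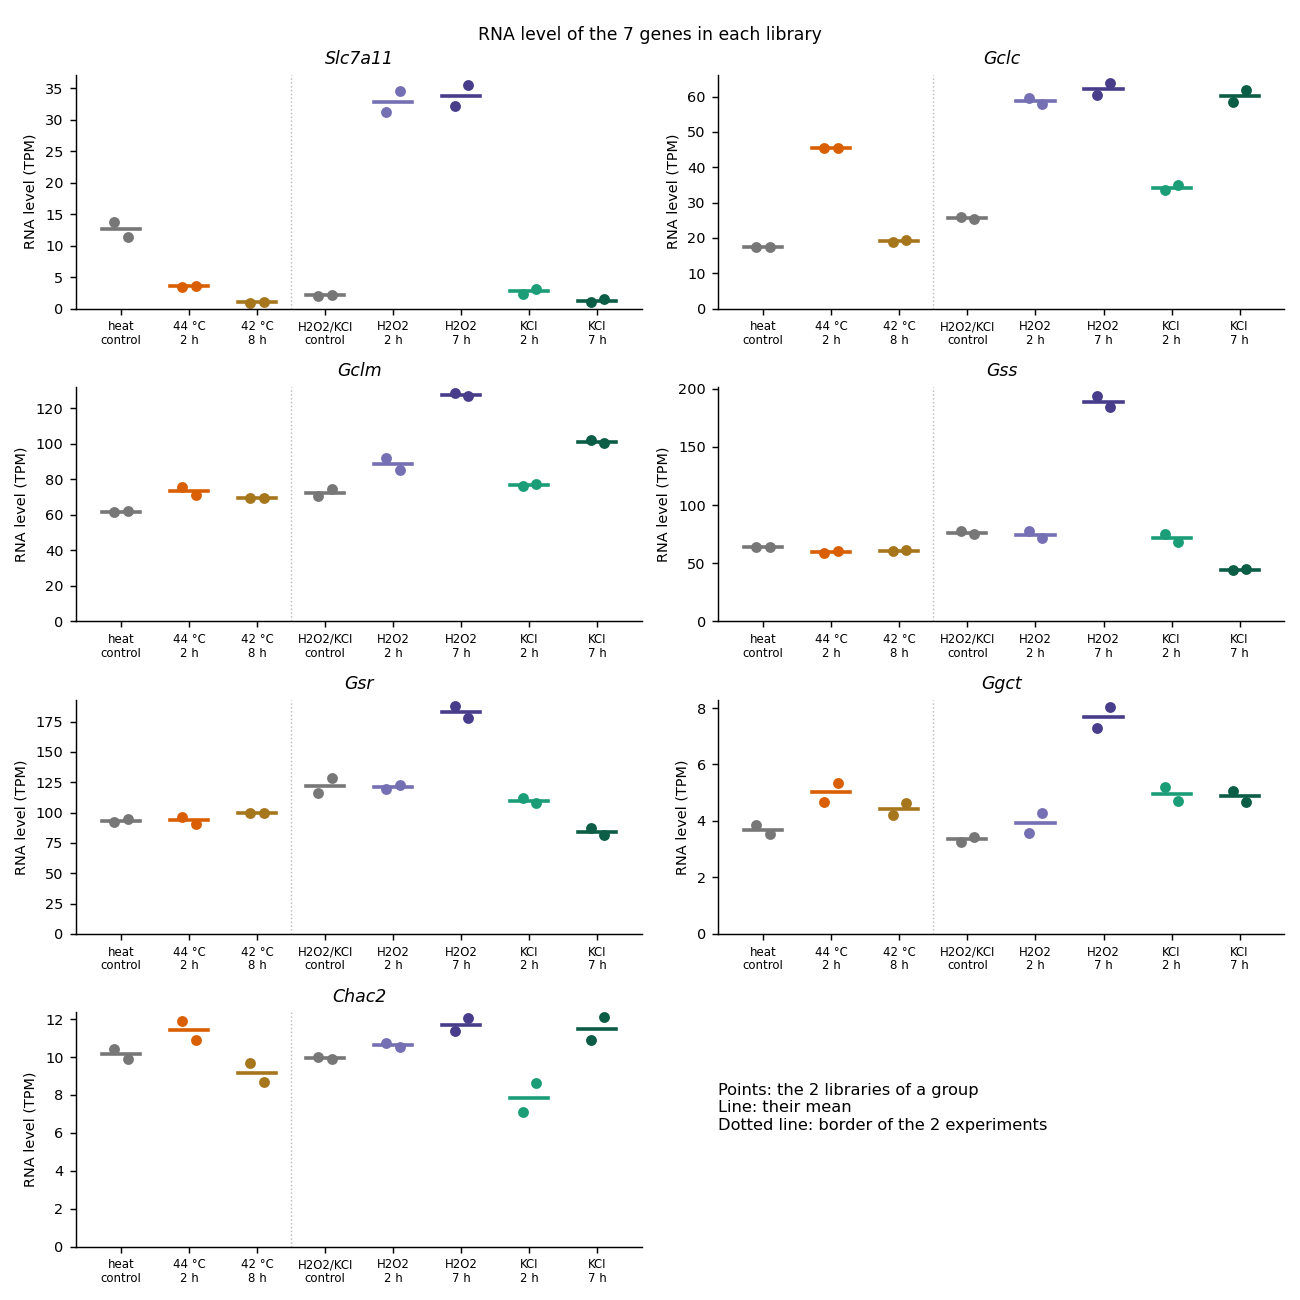
RNA level in TPM (vertical axes, from 0) of the 7 genes in each of the 8 groups, heat experiment left and H2O2/KCl experiment right of the dotted line; points are the 2 libraries of a group and lines their mean. Slc7a11 stood at 31.16 to 35.43 TPM in the 4 H2O2 libraries and at 0.93 to 13.78 TPM in the other 12, while Gss and Gsr were highest after 7 h of H2O2.

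Slc7a11, the cystine importer on chromosome 3, varied most among the members. Its RNA was at 2.00 and 2.21 TPM in the H2O2/KCl control, at 31.16 and 34.51 TPM after 2 h and at 32.12 and 35.43 TPM after 7 h of H2O2. The 4 H2O2 libraries were all far above the control and the 2 times overlapped each other. In normalized counts the log2 fold change was 3.97 at 2 h (SE 0.12; adjusted p 6.05e-12) and 4.09 at 7 h (SE 0.12; adjusted p 1.01e-12), a rise of 15.6-fold and 17.0-fold. The value at 7 h was 3.48 on log2(TPM + 1), a scale that understates changes of low levels. Between the times the difference of 0.12 (95% interval -0.08 to 0.33) did not pass the test.

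KCl gave much smaller changes of Slc7a11, a rise at 2 h and a fall at 7 h. Its level was 2.38 and 3.17 TPM at 2 h and 1.07 and 1.49 TPM at 7 h. Both 2 h libraries lay above the control and both 7 h libraries below it. These are log2 fold changes of 0.48 at 2 h (SE 0.13; adjusted p 0.00767) and -0.63 at 7 h (SE 0.15; adjusted p 0.00211). The rise at 2 h missed the threshold without control replicate 1 (adjusted p 0.0658), without KCl 2 h replicate 2 (0.147, with a log2 change of 0.28) and on log2(TPM + 1) (0.0969). The fall at 7 h missed it without KCl 7 h replicate 1 (adjusted p 0.0625, with a log2 change of -0.40).

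Under heat Slc7a11 fell. Its level was 13.78 and 11.42 TPM in the heat control, 3.49 and 3.64 TPM at 44 °C and 0.93 and 1.06 TPM at 42 °C, with no overlap between the groups. Slc7a11 changed by -1.89 on the log2 scale at 44 °C (SE 0.09; adjusted p 2.75e-10), a level 3.70-fold lower, and -3.48 at 42 °C (SE 0.11; adjusted p 5.35e-12), 11.2-fold lower, or -2.76 on log2(TPM + 1). The heat control itself lay above the other control, 12.6 ± 1.67 against 2.105 ± 0.148 TPM (mean ± SD, n = 2 each). The experiments were fitted apart, so a difference of the cells and a difference between experiments cannot be told apart there. Ordered by mean level, the groups ran from 42 °C, 7 h of KCl, the H2O2/KCl control, 2 h of KCl, 44 °C and the heat control up to 2 h and 7 h of H2O2. Of neighbours in that order, the 2 H2O2 groups were those whose libraries overlapped.

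Gclc, the catalytic subunit of the ligase on chromosome 9, was higher in all 6 treatments, by unequal amounts. In the H2O2/KCl experiment its level was 25.78 and 25.44 TPM in the control, 59.57 and 57.94 TPM at 2 h and 60.32 and 63.90 TPM at 7 h of H2O2. It was 33.69 and 34.83 TPM at 2 h and 58.54 and 61.98 TPM at 7 h of KCl. The libraries of 7 h of KCl fell within the range of the H2O2 libraries. With H2O2 the log2 fold change was 1.17 at 2 h (SE 0.06; adjusted p 1.6e-09) and 1.33 at 7 h (SE 0.06; adjusted p 9.66e-11). With KCl it was 0.49 at 2 h (SE 0.06; adjusted p 1.16e-05) and 1.33 at 7 h (SE 0.06; adjusted p 3.91e-10).

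In the heat experiment Gclc was at 17.36 and 17.43 TPM without heat, 45.50 and 45.35 TPM at 44 °C, then 18.88 and 19.30 TPM at 42 °C. The rise at 44 °C was 2.52-fold (log2 1.33, SE 0.05; adjusted p 6.53e-11), and the levels at 42 °C lay just above the control. There the log2 fold change of 0.32 (SE 0.06; adjusted p 0.000199) became 0.13 on log2(TPM + 1), with an adjusted p of 0.0661. On that scale, which lacks a correction for library composition, the typical gene also shifted at 42 °C, with a median change of -0.16 over all genes in place of -0.01 by TMM. The change of Gclc relative to the median gene was positive on both scales.

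Gclm, the modifier subunit on chromosome 3, was called higher in all 6 treatments. Its level was 70.31 and 74.39 TPM in the H2O2/KCl control, 91.83 and 85.24 TPM at 2 h and 128.49 and 126.81 TPM at 7 h of H2O2, a stepwise order without overlap. At 2 h and 7 h of KCl its libraries stood at 76.30 and 77.44 TPM and at 101.96 and 100.35 TPM. The log2 fold changes were 0.29 (SE 0.06; adjusted p 0.000942) and 0.90 (SE 0.06; adjusted p 5.87e-09) for H2O2, and 0.18 (SE 0.06; adjusted p 0.0187) and 0.59 (SE 0.06; adjusted p 8.31e-07) for KCl. The call at 2 h of KCl was lost without control replicate 1 (adjusted p 0.131), without KCl 2 h replicate 2 (0.0555) and on log2(TPM + 1) (0.193), and that at 2 h of H2O2 without its replicate 1 (0.067, with a log2 change of 0.17). In the heat experiment the levels were 61.34 and 62.04 TPM without heat, 75.60 and 70.91 TPM at 44 °C, and 69.18 and 69.62 TPM at 42 °C, with log2 fold changes of 0.18 (SE 0.04; adjusted p 0.00214) and 0.36 (SE 0.04; adjusted p 9.05e-06). Both heated groups lay above the control on either scale.

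**Figure D2:**
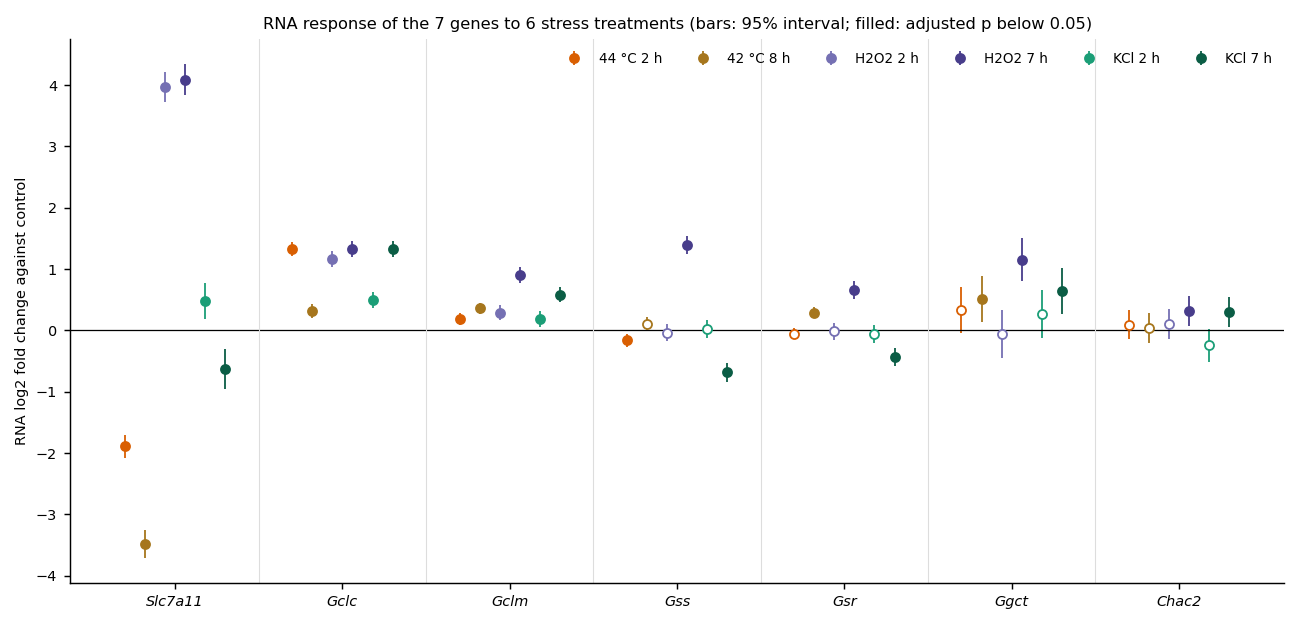
RNA log2 fold change against the control of the same experiment (vertical axis) for the 7 genes and 6 treatments; bars are 95% intervals and filled points passed an adjusted p of 0.05. Slc7a11 spans -3.48 to 4.09, Gclc lies above 0 in all 6 treatments, and Gss and Gsr have filled points on both sides of 0.

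Glutathione synthetase and glutathione reductase moved late, and in opposite directions under the 2 agents. Gss, on chromosome 2, was at 77.26 and 75.08 TPM in the control, at 78.01 and 71.23 TPM at 2 h and at 193.89 and 184.10 TPM at 7 h of H2O2. With KCl it was at 75.37 and 68.50 TPM at 2 h and at 43.97 and 44.79 TPM at 7 h. The libraries at 2 h overlapped the control or lay close to it, and those at 7 h were far above it with H2O2 and below it with KCl. By 7 h its log2 fold change was 1.39 with H2O2 (SE 0.07; adjusted p 1.83e-10) and -0.68 with KCl (SE 0.07; adjusted p 8.97e-07). At 2 h it was -0.04 (95% interval -0.18 to 0.11) and 0.02 (-0.13 to 0.16).

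Gsr, on chromosome 8, was at 115.88 and 128.85 TPM in the control, 119.08 and 123.16 TPM at 2 h and 187.71 and 178.21 TPM at 7 h of H2O2. With KCl it was at 111.71 and 107.99 TPM at 2 h and 87.05 and 81.51 TPM at 7 h. The 2 h H2O2 libraries lay between the control libraries, and both 7 h groups were outside them. Its log2 fold change at 7 h was 0.66 with H2O2 (SE 0.07; adjusted p 5.61e-07) and -0.44 with KCl (SE 0.07; adjusted p 4.87e-05). Under heat both genes stayed close to the control. Gss was at 64.11 and 63.45 TPM in the heat control, 59.09 and 60.60 TPM at 44 °C and 60.38 and 61.06 TPM at 42 °C, with log2 fold changes of -0.16 (SE 0.05; adjusted p 0.00866) and 0.11 (SE 0.05; adjusted p 0.0561). The fall at 44 °C lost its call without 44 °C replicate 1 (adjusted p 0.0701) and on log2(TPM + 1) (0.0785), and the value at 42 °C changed sign to -0.07 on that scale (0.17). It passed with RLE normalization (0.0426) and when only the groups compared were fitted (0.0372), and did not with DESeq2 (0.124). Gsr was at 91.93 and 94.43 TPM in the heat control, 96.79 and 90.85 TPM at 44 °C and 99.67 and 100.06 TPM at 42 °C. Its log2 fold change of 0.29 at 42 °C (SE 0.04; adjusted p 3.31e-05) was 0.10 on log2(TPM + 1), where it missed the threshold (adjusted p 0.0673).

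The genes of gamma-glutamyl turnover were low. Ggct, on chromosome 6, was at 3.26 and 3.43 TPM in the control, 3.56 and 4.28 TPM at 2 h and 7.30 and 8.05 TPM at 7 h of H2O2. With KCl it was at 5.21 and 4.71 TPM after 2 h and 5.07 and 4.68 TPM after 7 h. The 7 h H2O2 libraries were the highest of the 16. There the log2 fold change was 1.16 (SE 0.16; adjusted p 1.73e-05), and at 7 h of KCl 0.65 (SE 0.17; adjusted p 0.00428). At 2 h the counts gave -0.06 with H2O2 (95% interval -0.45 to 0.33) and 0.27 with KCl (-0.13 to 0.66). On log2(TPM + 1) the rise at 2 h of KCl was 0.46 and passed the test (adjusted p 0.00354). In the heat experiment Ggct was at 3.86 and 3.53 TPM without heat, 4.66 and 5.36 TPM at 44 °C, then 4.22 and 4.64 TPM at 42 °C. The call at 42 °C (log2 0.51, SE 0.18; adjusted p 0.0213) was lost without heat control replicate 2 (0.129), without 42 °C replicate 2 (0.0856), with DESeq2 (0.104) and on log2(TPM + 1) (0.076), while the value of 0.33 at 44 °C (adjusted p 0.106) passed on that scale (0.00698).

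Chac2, on chromosome 11, changed little. Its level was 9.99 and 9.92 TPM in the control, 10.72 and 10.51 TPM at 2 h and 11.37 and 12.06 TPM at 7 h of H2O2, and 7.08 and 8.62 TPM at 2 h and 10.89 and 12.10 TPM at 7 h of KCl. In the heat experiment it was 10.45 and 9.90 TPM without heat, 11.91 and 10.90 TPM at 44 °C, then 9.68 and 8.67 TPM at 42 °C. The rises at 7 h, 0.31 with H2O2 (SE 0.11; adjusted p 0.024) and 0.30 with KCl (SE 0.12; adjusted p 0.0328), missed the threshold in several alternatives. With DESeq2 they gave an adjusted p of 0.148 and 0.143. The H2O2 call was lost without any of its 4 libraries (adjusted p 0.0751 to 0.119), and the KCl call without either control replicate or KCl 7 h replicate 2 (0.0901 to 0.165). The fall of 0.25 at 2 h of KCl on the log2 scale did not pass (adjusted p 0.108), while on log2(TPM + 1) it did (log2 -0.31; adjusted p 0.0213).

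By count, 4 of 7 members were called at 44 °C (2 higher, 2 lower), where 71% of 12747 genes were called (35.4% higher, 35.7% lower). At 42 °C 5 of 7 were called (4 higher, 1 lower) against 63.6% of all genes (31.7% higher, 31.9% lower). On log2(TPM + 1) the split over all genes there moved from 4041 higher and 4072 lower to 1945 and 6287, and 2 members were called. At 2 h of H2O2 the 3 calls stood against 53.9% of 13256 genes called in either direction (26.5% lower), and at 7 h the 7 calls against 70.5%. At 2 h of KCl 3 of 7 members were called, all higher, against 54.2% of all genes (27.2% higher, 27% lower). That split moved from 3609 higher and 3576 lower to 2567 and 4540 on log2(TPM + 1). At 7 h of KCl all 7 were called (4 higher, 3 lower) against 68.8% of all genes (37.2% higher, 31.6% lower). The members' median log2 fold change was 0.09 at 44 °C, 0.29 at 42 °C, 0.10 after 2 h of H2O2, 1.16 after 7 h, 0.18 after 2 h of KCl, and 0.30 after 7 h. The median of all genes tested lay between -0.01 and 0.08 in these comparisons. The H2O2 and KCl comparisons share their control libraries.

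Times and agents were compared directly, since the H2O2 and KCl groups were all set against the same control. From 2 h to 7 h of H2O2, 5 of 7 members rose, against 73.4% of all genes called (37.3% higher, 36.1% lower). Gss rose most in this interval, by 1.43 (SE 0.07; adjusted p 1.77e-10), and Ggct by 1.22 (SE 0.17; adjusted p 1.68e-05). Gsr rose by 0.68, Gclm by 0.61 and Gclc by 0.16, all on the log2 scale. The call for Gclc (adjusted p 0.0226) was lost with RLE normalization (0.0622), with DESeq2 (0.112), on log2(TPM + 1) (0.232) and without H2O2 2 h replicate 1 (0.0589) or 2 (0.155) or H2O2 7 h replicate 2 (0.161). From 2 h to 7 h of KCl 6 of 7 were called, against 68.8% of all genes (35.1% higher, 33.7% lower). Gclc rose by 0.84 (SE 0.06; adjusted p 2.22e-08), Chac2 by 0.54 and Gclm by 0.40. Slc7a11 fell by 1.11 (SE 0.16; adjusted p 1.95e-05), Gss fell by 0.70 and Gsr fell by 0.37.

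At 2 h, H2O2 exceeded KCl for 3 of 7 members, Slc7a11 (log2 difference 3.49, SE 0.12), Gclc (0.68, SE 0.06) and Chac2 (0.34, SE 0.13), against 51.3% of all genes called (27% higher, 24.2% lower). The split of all genes moved from 3582 higher and 3212 lower to 4264 and 1986 on log2(TPM + 1), where Gclm (0.20; adjusted p 0.0101) and Ggct (-0.28; adjusted p 0.0432) were called as well. The Chac2 difference was lost with DESeq2 (adjusted p 0.123), without either H2O2 2 h replicate (0.111 and 0.0842) and without KCl 2 h replicate 1 (0.261). At 7 h H2O2 exceeded KCl for 5 of 7, against 78.4% of all genes (41% higher, 37.4% lower). Slc7a11 differed by 4.72 (SE 0.13; adjusted p 6.02e-13; 3.935 on log2(TPM + 1)), Gss by 2.08 (SE 0.07; adjusted p 3.54e-12), Gsr by 1.10 (SE 0.07; adjusted p 1.91e-09), Ggct by 0.51 (SE 0.16; adjusted p 0.0114) and Gclm by 0.31 (SE 0.06; adjusted p 0.000211). The Ggct difference was lost without H2O2 7 h replicate 2 (adjusted p 0.0674), without KCl 7 h replicate 2 (0.0504) and with DESeq2 (0.0783). The Gclc levels of the 2 agents at 7 h were close, with a log2 difference of -0.005 (95% interval -0.13 to 0.12), and so were those of Chac2 (0.01, -0.24 to 0.27).

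The 2 heat treatments, which differ in temperature and in time, also differed from each other. At 42 °C for 8 h Slc7a11 was lower than at 44 °C for 2 h by a log2 change of -1.60 (SE 0.12; adjusted p 2.73e-08) and Gclc by -1.02 (SE 0.05; adjusted p 4.76e-10). Gsr, Gss and Gclm were called higher, by 0.34, 0.27 and 0.17, so 5 of 7 members were called against 75.1% of all genes (37.9% higher, 37.2% lower). On log2(TPM + 1) the median over all genes was -0.20 and the split moved from 4829 higher and 4743 lower to 2764 and 6798. On that scale Gclm changed sign to -0.08 (adjusted p 0.148), and Gss (0.02; adjusted p 0.67) and Gsr (0.09; adjusted p 0.0829) missed the threshold, while Chac2 passed it (-0.29; adjusted p 0.0102).

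The responses to heat and to H2O2, each against its own control, were compared in a joint fit of the 16 RNA libraries. The response to 44 °C for 2 h differed from that to 2 h of H2O2 for Slc7a11 alone among the 7, by a log2 difference of -5.90 (SE 0.16; adjusted p 2.83e-14), against 58% of 13597 genes called (33.7% lower) and a median of -0.11 over all genes. The Slc7a11 differences start from unlike levels, a mean of 12.6 TPM in the heat control and 2.105 TPM in the H2O2/KCl control. At 44 °C the mean, 3.565 TPM, was still above the latter. For Gclc the difference of 0.12 (95% interval -0.03 to 0.28; adjusted p 0.166) did not pass with all libraries. It passed without control replicate 2 (0.22; adjusted p 0.0413) and without 44 °C replicate 1 (0.23; adjusted p 0.0333), and that of Gclm passed without H2O2 2 h replicate 2 (-0.19; adjusted p 0.0452). The response to 42 °C for 8 h was lower than that to 7 h of H2O2 for 6 of 7 members, against 64.8% of all genes called (31.4% lower). The differences were -7.51 for Slc7a11, -1.22 for Gss, -0.95 for Gclc, -0.59 for Ggct, -0.48 for Gclm and -0.32 for Gsr. The durations compared here are not the same, and the Ggct difference (adjusted p 0.0305) was lost without any of 4 of its 8 libraries (0.0614 to 0.104).

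In footprints, Slc7a11 rose with H2O2 as its RNA did, Gclc and Gss rose late, and Gclm and Gsr were not called against the control. Slc7a11 footprints were at 11.04 and 7.28 TPM in the control, 26.31 and 60.22 TPM at 2 h and 56.77 and 55.11 TPM at 7 h of H2O2. With KCl they were at 6.07 and 5.6 TPM at 2 h and 3.27 and 2.31 TPM at 7 h. The H2O2 libraries were all above the control and the KCl libraries all below it, from 11 to 63 counts in the control and KCl libraries and 61 to 432 counts in the H2O2 libraries. Slc7a11 footprints changed by 2.37 on the log2 scale at 2 h (SE 0.34; adjusted p 0.00426) and 2.54 at 7 h of H2O2 (SE 0.34; adjusted p 0.000113). The value at 2 h was 1.70 without H2O2 2 h replicate 2 (adjusted p 0.0334), and it missed the threshold on log2(TPM + 1) (adjusted p 0.0501) and when only the 2 groups were fitted (0.0617). At 7 h of KCl it was -1.66 (SE 0.44; adjusted p 0.0192), a call lost without control replicate 1 (0.126) and without either KCl 7 h replicate (0.0578 and 0.166).

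Gclc footprints were at 11.30 and 13.20 TPM in the control, 12.08 and 13.53 TPM at 2 h and 27.90 and 30.58 TPM at 7 h of H2O2. With KCl they were at 9.27 and 9.66 TPM at 2 h and 30.23 and 32.07 TPM at 7 h. At 2 h the H2O2 libraries overlapped the control and the KCl libraries lay below it, while the RNA was higher with both. At 7 h the log2 fold change was 1.11 with H2O2 (SE 0.21; adjusted p 0.00145) and 1.38 with KCl (SE 0.21; adjusted p 0.00082), and at 2 h 0.16 (95% interval -0.31 to 0.62) and -0.31 (-0.79 to 0.16).

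Gss footprints were at 35.74 and 35.04 TPM in the control, 38.35 and 28.31 TPM at 2 h and 122.93 and 128.02 TPM at 7 h of H2O2, and at 37.52 and 42.56 TPM and 31.43 and 32.53 TPM with KCl. The 7 h H2O2 libraries stood apart from the other 8, with a log2 fold change of 1.71 (SE 0.20; adjusted p 4.41e-05). Gclm footprints were at 101.08 and 89.81 TPM in the control and 104.12 and 110.28 TPM at 7 h of H2O2, and ranged from 80.15 to 145.85 TPM over the 10 libraries. Its log2 fold change at 7 h of H2O2 was 0.06 (95% interval -0.47 to 0.58), against 0.90 in RNA. Gsr footprints ranged from 54.44 to 110.36 TPM, with a log2 fold change of 0.09 at 7 h of H2O2 (-0.32 to 0.50) against 0.66 in RNA. Chac2 ranged from 7.60 to 19.60 TPM and was not called. Ggct, with 3 to 19 footprint counts a library, did not pass the filter on low counts, so 6 members were tested.

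Among these 6, footprints called 1 at 2 h of H2O2 against 1.91% of 10545 genes (1.14% higher), 3 at 7 h of H2O2 against 27.7% (17.2% higher, 10.6% lower), and 2 at 7 h of KCl against 20.4% (10.5% higher, 9.83% lower). For all genes at 7 h of H2O2, 1810 higher and 1115 lower became 1853 and 640 on log2(TPM + 1). At 2 h of KCl edgeR called 0 of 6, with 0 at an unadjusted p under 0.05 and 0 by DESeq2, against 6.86% of all genes (1.79% higher, 5.06% lower). From 2 h to 7 h Gclc (0.95) and Gss (1.75) rose with H2O2, against 29.8% of all genes called (18.7% higher, 11.1% lower), and Gclc (1.69) rose with KCl, against 20.6% (12.1% higher, 8.43% lower). H2O2 exceeded KCl in Slc7a11 footprints at 2 h by 2.94 (SE 0.37; adjusted p 0.000933; 2.27 without H2O2 2 h replicate 2), the 1 call against 5.12% of all genes (3.03% higher, 2.1% lower). At 7 h it did so for 3 members, against 41.2% of all genes (23.5% higher, 17.8% lower). These were Slc7a11 (a log2 difference of 4.2, SE 0.40), Gss (1.84, SE 0.20) and Gsr (0.57, SE 0.19; adjusted p 0.031). The Gsr call was lost without either H2O2 7 h replicate (adjusted p 0.217 and 0.0899), without KCl 7 h replicate 2 (0.223) and without the filter on low counts (0.0541).

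**Figure D3:**
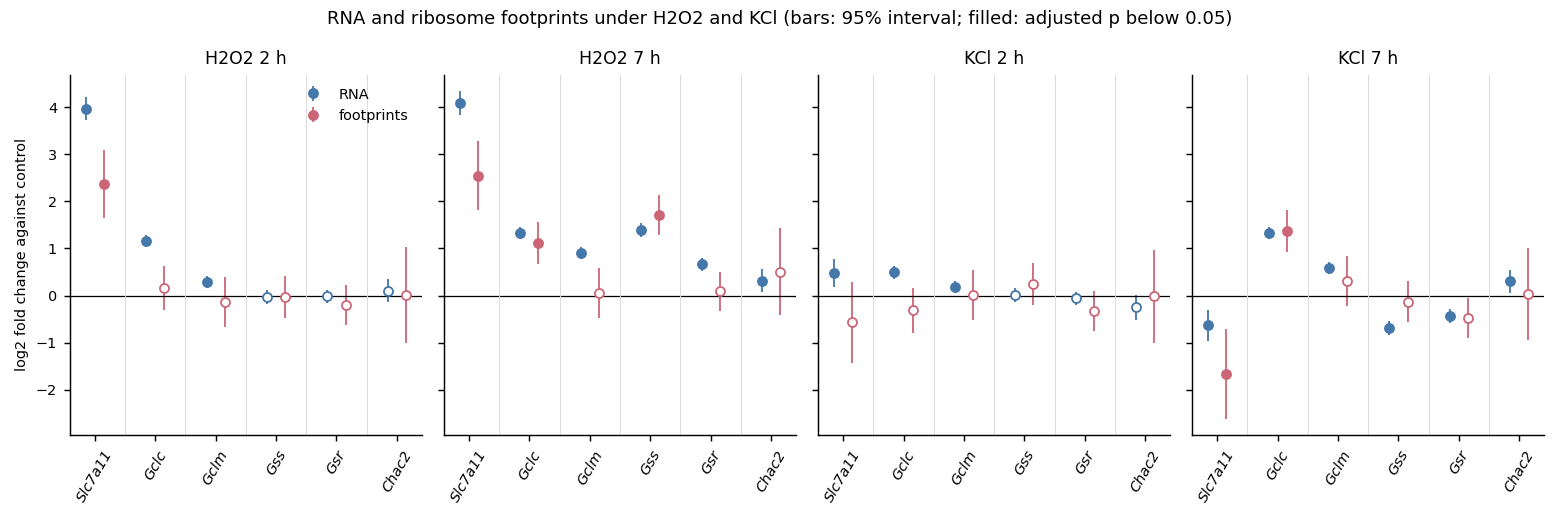
Log2 fold change against the control (vertical axis) in RNA (blue) and in footprints (red) for the 6 genes tested in both, for 2 h and 7 h of H2O2 and of KCl; bars are 95% intervals and filled points passed an adjusted p of 0.05. Slc7a11 footprints rise less than its RNA with H2O2 (2.37 against 3.97 at 2 h), and Gclc is filled in RNA but open in footprints at 2 h.

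Translational efficiency, the footprints of a gene relative to its RNA, was tested as an interaction. Each kind of library was normalized on its own, so values are relative to the typical gene and cannot show a change shared by all genes. RNA and footprint libraries shared an estimate of the spread for each gene. The SE of Gclc at 2 h of H2O2 (0.18) was below that of its footprints alone (0.22), so these p-values can understate the spread of footprints. At 2 h of H2O2 it was lower for Slc7a11, by a log2 change of -1.57 (SE 0.38; adjusted p 0.013), and for Gclc, by -1.03 (SE 0.18; adjusted p 0.00157), 2 of 6 members against 11.4% of 10480 genes called (7.46% lower). At 7 h it was lower for Slc7a11, by -1.54 (SE 0.37; adjusted p 0.0154), and for Gclm, by -0.84 (SE 0.24; adjusted p 0.0369), against 9.27% of all genes (4.57% lower). At 2 h of KCl it was lower for Gclc, by -0.81 (SE 0.18; adjusted p 0.00753), against 12.8% of all genes (9.18% lower). At 7 h of KCl edgeR called 0 of 6 members, with 1 at an unadjusted p under 0.05 (Gss, 0.59) and 0 by limma voom, against 5.57% of all genes. Gclc at 7 h, where its footprints had risen, differed from its RNA by -0.21 with H2O2 (95% interval -0.57 to 0.14) and 0.08 with KCl (-0.27 to 0.43). With limma voom the Slc7a11 value at 2 h of H2O2 (adjusted p 0.0522) and the Gclc value at 2 h of KCl (0.0571) missed the threshold. The Slc7a11 value at 2 h was -2.32 without footprint H2O2 2 h replicate 2 (adjusted p 0.000474). It was lost without footprint control replicate 1 at 2 h (-1.14; adjusted p 0.164) and at 7 h (-1.13; 0.168), and at 7 h also without RNA control replicate 1 (0.0579), RNA replicate 2 (0.053) or footprint replicate 1 (0.0534) of that group. The Gclm value at 7 h was lost without any of its 8 libraries (adjusted p 0.0547 to 0.135). Slc7a11 had 63 and 34 footprint counts in the control, so its ratio there rests on few reads. All treatments in this test are set against that control. With KCl the Slc7a11 value was also negative but not called by edgeR, at -1.07 after 2 h (adjusted p 0.143) and -1.03 after 7 h (0.299). The lower value is thus not particular to H2O2.

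The partner of xCT and the glutathione-cleaving Chac1 moved with Slc7a11 in some treatments. Slc3a2 RNA was at 188.39 and 166.49 TPM in the control, 607.80 and 570.78 TPM at 2 h and 509.62 and 515.66 TPM at 7 h of H2O2, with no overlap. Its log2 fold change was 1.72 (SE 0.06) and 1.63 (SE 0.06) with H2O2, 0.29 and -0.16 with KCl, and -0.12 and -0.30 at 44 °C and 42 °C, all called. The signs were those of Slc7a11 in the 6 treatments, with smaller sizes. Its footprints rose by 1.25 (SE 0.19; adjusted p 0.00586) and 0.99 (SE 0.19; adjusted p 0.00151) at 2 h and 7 h of H2O2. Chac1 RNA was at 14.48 and 15.06 TPM in the control, 152.04 and 133.70 TPM at 2 h and 106.84 and 106.23 TPM at 7 h of H2O2, and at 8.43 and 7.20 TPM at 2 h and 31.58 and 34.43 TPM at 7 h of KCl. Its log2 fold change was 3.27 and 2.93 with H2O2, -0.87 at 44 °C and -1.92 at 42 °C. With KCl it was -0.82 after 2 h and 1.26 after 7 h, where both signs were opposite to those of Slc7a11. All 6 were called. Chac2, its paralog, lay between -0.25 and 0.31 in the same treatments.

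**Figure D4:**
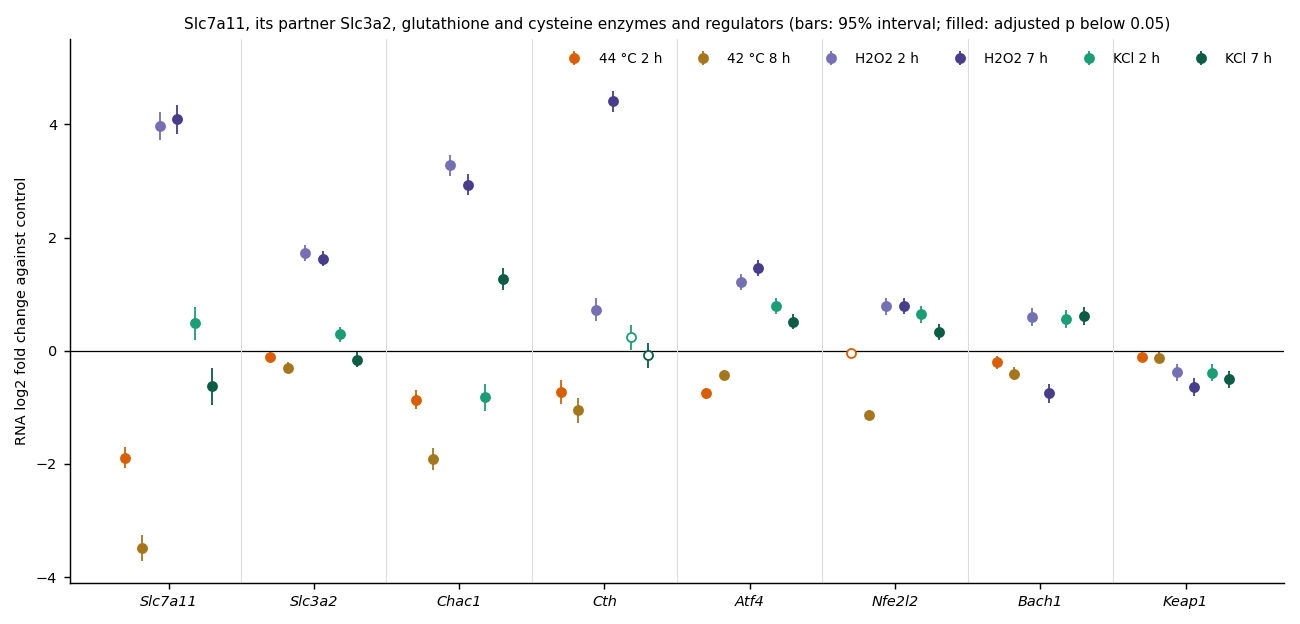
RNA log2 fold change against the control of the same experiment (vertical axis) for Slc7a11, Slc3a2, Chac1, Cth and 4 regulators in 6 treatments; bars are 95% intervals and filled points passed an adjusted p of 0.05. Slc7a11, Slc3a2, Chac1 and Atf4 lie above 0 at both H2O2 times and below 0 at both heat treatments, and Keap1 lies below 0 in all 6.

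Of the regulators, Atf4 rose with H2O2 (1.22 and 1.46 at 2 h and 7 h) and KCl (0.79 and 0.52) and fell at 44 °C (-0.75) and 42 °C (-0.44). Nfe2l2 rose with H2O2 (0.78 and 0.79) and KCl (0.64 and 0.33), fell at 42 °C (-1.13) and was not called at 44 °C (-0.04). Keap1 was lower in the 6 treatments, from -0.11 at 44 °C to -0.64 at 7 h of H2O2. Bach1 was higher at 2 h of H2O2 (0.59) and at both times of KCl (0.56 and 0.61), and lower at 7 h of H2O2 (-0.75) and at 44 °C (-0.20) and 42 °C (-0.40). Of the 8 regulators listed, 7 were higher and 1 lower at 2 h of H2O2, and 6 higher and 2 lower at 7 h, where Mafk, a small Maf partner of NRF2, rose most (2.06). The shares of all genes called higher and lower were 27.3% and 26.5% at the earlier time, and 39.4% and 31.1% at the later. With KCl 6 regulators were higher and 2 lower at 2 h (27.2% and 27% of all genes), and 7 and 1 at 7 h (37.2% and 31.6%). At 44 °C 3 were higher and 3 lower (35.4% and 35.7% of all genes), and at 42 °C 2 and 5 (31.7% and 31.9%). Atf4 footprints rose by 2.44 (SE 0.23; adjusted p 0.000141) at 2 h of H2O2, and its translational efficiency by 1.18 (SE 0.23; adjusted p 0.00329). At 7 h of H2O2 and at 2 h and 7 h of KCl, 0 of the 8 regulators, Atf4 included, had a translational efficiency called higher. Of all genes 4.69%, 3.58% and 1.69% were called higher there. The Atf4 efficiency was not recomputed under the alternatives used for the members.

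All gene lists, like the members, were chosen with earlier results of these data known, so their counts against all genes are descriptions. Genes of cysteine supply, 12 besides Slc7a11, were called higher in 9 and lower in 3 of 12 at 7 h of H2O2 (median 0.77), against 39.4% and 31.1% of all genes. Cbs, which condenses homocysteine with serine, rose by 5.47 (SE 0.14), and Cth, which releases cysteine from cystathionine, by 4.41 (SE 0.09). Csad, which diverts cysteine products to taurine, changed by -0.96 and Mat2b, a subunit of methionine adenosyltransferase, by -0.49. At 2 h of H2O2 the list split into 5 higher and 5 lower (median 0.07), against 27.3% and 26.5%. At 44 °C and 42 °C it had 3 and 2 higher and 6 and 7 lower of 11 (medians -0.22 and -0.42), where 71% and 63.6% of all genes were called. KCl gave 4 higher and 1 lower of 12 after 2 h, against 54.2% of all genes called, and 2 higher and 5 lower after 7 h, against 68.8%. On log2(TPM + 1) the median at 2 h of H2O2 became -0.04, and the counts at 2 h of KCl became 3 higher and 4 lower.

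Genes of the gamma-glutamyl cycle and glutathione breakdown, 7 of 10 tested, had 4 higher and 1 lower at 7 h of H2O2 (median 0.69), a share called near the 70.5% of all genes. Besides Chac1, Ggt5, a gamma-glutamyl transferase, went from 1 count in both control libraries together to 45 counts at 7 h of H2O2. It passed the filter on low counts only through treated libraries, so it adds no support to the count of genes higher. Oplah, which opens 5-oxoproline, rose by 0.69 and Lap3, a leucine aminopeptidase, changed by -0.18. At 44 °C 1 was higher and 6 lower (median -0.62), against 35.4% and 35.7% of all genes. At 42 °C 2 were higher and 4 lower (median -0.72), against 31.7% and 31.9%.

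Other NRF2 targets, 15 genes, had 6 higher and 3 lower at 2 h of H2O2 (median 0.09), a share called near the 53.9% of all genes. At 7 h 13 were higher and 1 lower (median 0.80), against 39.4% and 31.1% of all genes. Hmox1 (heme oxygenase, 2.97, SE 0.09) and Osgin1 (2.28, SE 0.10) rose most at 7 h, while Txn1 (thioredoxin) rose by 0.23 and Me1 (malic enzyme) changed by -0.17. At 7 h of KCl 12 were higher and 0 lower (median 0.35; 37.2% and 31.6% of all genes), and at 2 h 5 and 1 (median -0.03), or 4 and 4 on log2(TPM + 1). At 44 °C 6 were higher and 7 lower (median -0.05, or 0.03 on that scale), against 35.4% and 35.7% of all genes. At 42 °C 8 were higher and 3 lower (median 0.10), a split that turned to 3 and 8 on log2(TPM + 1) (median -0.09, against -0.16 for all genes). Of all genes 31.7% were called higher and 31.9% lower there.

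ATF4 targets, 10 genes, were all higher at 7 h of H2O2 (median 2.36) and 8 were higher at 2 h (median 1.14), against 39.4% and 27.3% of all genes. This list too was chosen with earlier results of these data known, so the contrast is no test. Sesn2 (sestrin 2, 3.74, SE 0.09) and Trib3 (a pseudokinase, 3.61, SE 0.10) rose most at 7 h, and Psat1 (serine synthesis, 0.74) and Nupr1 (0.63) least. At 42 °C 2 were higher and 8 lower (median -1.12) and at 44 °C 1 and 6 (median -0.32), where 31.9% and 35.7% of all genes were lower. KCl gave 3 higher and 5 lower after 2 h (median -0.06) and 4 higher and 1 lower after 7 h (median 0.20), where 54.2% and 68.8% of all genes were called. In footprints 5 of 10 were higher at 2 h and 8 of 10 at 7 h of H2O2, against 1.14% and 17.2% of all genes.

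The genes whose 6 RNA log2 fold changes lay closest to those of a member were sought among 9240 genes tested in both experiments whose mean abundance reached a log2 CPM of 3. For Slc7a11 these were Vldlr (a lipoprotein receptor, root mean square difference 1.05), Trib3 (1.08) and Sesn2 (1.13). They were nearest but not close. At 2 h of KCl, where Slc7a11 was at 0.48, they were at -0.03, -0.75 and -0.30. For Gclc the nearest were Ern1 (the IRE1 sensor of the endoplasmic reticulum, 0.30), Cnnm4 (a magnesium transport protein, 0.32) and Mxd1 (a partner of MAX, 0.33). For Gclm they were Abcf2 (0.086), Txnl4a (a spliceosome protein, 0.093) and Wdr70 (0.098). The measure grows with the size of the changes, so these distances are not comparable between the 3 members.

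The authors also deposited calls of downstream-of-gene transcripts (DoGs), made when transcription runs past a gene end, and of read-in, when it reaches into the next gene, for 6399 pairs of neighbours in each RNA library. There were 5 pairs with a member. For Gclm and its downstream neighbour Dnttip2 a DoG was called in 16 of 16 libraries, as for 277 pairs (4.33%) in all. The read-in estimate of this pair, a ratio deposited without its formula, was 0.00111 and 0.00289 in the control, 0.0106 and 0.0113 after 2 h of KCl, then 0.00942 and 0.0139 after 7 h. With H2O2 it was 0.00563 and 0.00328 at 2 h and 0.00183 and 0.0015 at 7 h. In the heat experiment it was 0.0028 and 0.00252 without heat, 0.00637 and 0.00487 at 44 °C, then 0.0055 and 0.00453 at 42 °C. The 4 KCl libraries were the highest of the 16, and the heated libraries lay above their control without overlap. No read-in was called for this pair, nor for the other 4 pairs. Of those, Stc2 upstream of Chac2 had a DoG call in 11 of 16 libraries, Ppp2cb upstream of Gsr in 5, and Trpc4ap upstream of Gss and Ggct upstream of Nod1 in 2 each.

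**Figure D5:**
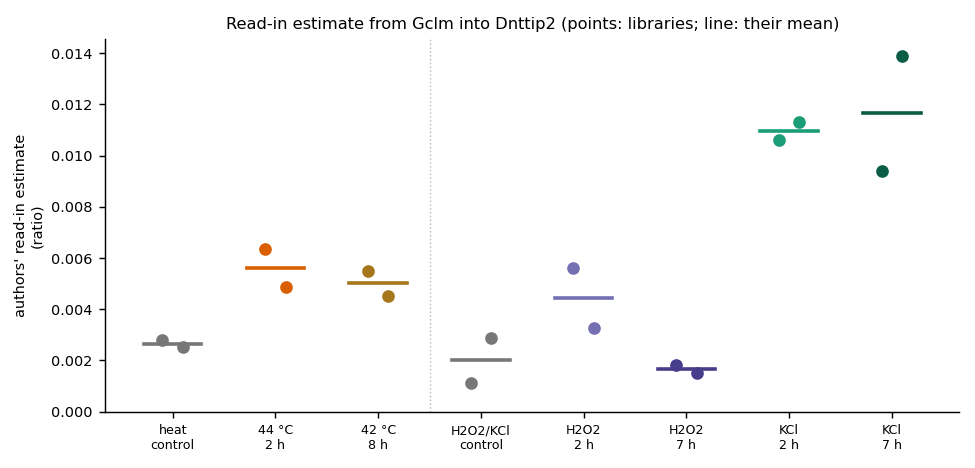
The authors' read-in estimate from Gclm into Dnttip2 (vertical axis, a ratio) in each RNA library of the 8 groups; points are libraries and lines group means. The 4 KCl libraries lie between 0.00942 and 0.0139, above the other 12.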

How the data were processed

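RNA was measured in 16 and footprints in 10 libraries of NIH3T3 cells. The authors deposited expected counts per gene and TPM values for the same libraries, from which per-gene tables were read by symbol. Expected counts were rounded to whole numbers before use. No member had a row under another RefSeq name. The submitters' processing notes name STAR, Bowtie, RSEM and mm10, with no version or role. The authors also deposited the read-in estimate, a ratio, and DoG and read-in calls. There were 12 columns that could be tied to no sample by name, and these stayed out. An NEB kit was used for the RNA libraries, per the labels' protocols.

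Tests were edgeR 4.0.16 (R 4.3.3) quasi-likelihood F tests on the expected counts with TMM and filterByExpr, p-values being adjusted after Benjamini and Hochberg across the full set (12747 heat, 13256 H2O2/KCl, 10545 footprints, 10480 translational efficiency, 13597 joint), threshold 0.05; groups of an experiment shared the spread. Translational efficiency was the interaction of library kind and group in 20 libraries. Intervals are 95%. The fits were checked on simulated data with 200 changed genes. The RNA comparisons called far more genes, so that check does not cover normalization under such wide change. Alternatives were RLE, no filter, DESeq2 1.42.0, limma 3.58.1 on log2(TPM + 1) and log2(TPM + 0.1), only the groups compared, a replicate block, leave-one-out, limma voom weights and a log2 change of at least 1. The text names the 7 members, Slc3a2, Chac1, 4 regulators and, in each list, the 2 highest and 2 lowest called genes at 7 h of H2O2. Members and lists were chosen with earlier results of these data known.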

Additional observations from a re-analysis of the deposited data

Results flagged for a closer look

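The difference between durations of the same agent, 7 h against 2 h, was tested directly (edgeR, adjusted p below 0.05) and passed for 14 member values. In RNA with H2O2 the log2 difference was 0.16 for Gclc, 0.61 for Gclm, 1.43 for Gss, 0.68 for Gsr and 1.22 for Ggct. In RNA with KCl it was 0.84 for Gclc, 0.40 for Gclm and 0.54 for Chac2, and -1.11 for Slc7a11, -0.70 for Gss and -0.37 for Gsr. In footprints it was 0.95 for Gclc and 1.75 for Gss with H2O2, and 1.69 for Gclc with KCl. Gss and Gsr thus have opposite signs with the 2 agents in RNA, and Gclc rises in footprints with both. In footprints the KCl values of Gss (-0.37; adjusted p 0.219) and Gsr (-0.15; 0.625) did not pass. Neither did that of Gsr with H2O2 (0.29; 0.278). The 2 h H2O2 footprint libraries held 1460751 and 5168537 counts.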

How the results depend on the processing

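Over all alternatives 941 values of called members were recomputed. Of these 128 lost their call, 42 of them by requiring a log2 change of at least 1, and 2 changed sign. Of values not called, 19 gained a call. Gclm between the heat treatments changed sign, to -0.076 on log2(TPM + 1) (adjusted p 0.148) and -0.077 on log2(TPM + 0.1) (adjusted p 0.151). The cause was not tested. Requiring a log2 change of at least 1 left 2 members at 44 °C, 1 at 42 °C, 2 between these, 4 at 7 h of H2O2, 0 at 2 h and 1 at 7 h of KCl, 2 between times of H2O2 and 1 of KCl, 1 and 3 for H2O2 against KCl at 2 h and 7 h, 1 between times of H2O2 in footprints, 2 for 42 °C minus H2O2, and, in translational efficiency, 1 for 7 h of H2O2 and 0 for 2 h of KCl. On log2(TPM + 1) the count was 2 at 42 °C, 3 between heat treatments, 5 for H2O2 against KCl at 2 h and 0 for footprints at 2 h of H2O2. On log2(TPM + 0.1) it was 2, 3 and 0 for the first, second and last of these. Fitting only the groups compared gave 0 for footprints at 2 h of H2O2. With voom weights translational efficiency gave 1 at 2 h of H2O2 (659 genes in all, against 1199) and 0 at 2 h of KCl (730 against 1337).

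Leaving out a library gave 3 to 4 members at 44 °C, 4 to 5 at 42 °C, 5 each time between these, 2 to 3 after 2 h and 6 each time after 7 h of H2O2, 1 to 3 after 2 h and 6 each time after 7 h of KCl, 4 to 5 between times of H2O2, 6 to 7 of KCl, and 2 to 3 and 4 to 5 for H2O2 against KCl. For footprints it gave 1 to 2 at 7 h of KCl and 2 to 3 for H2O2 against KCl at 7 h. For the response differences it gave 1 to 2 and 5 to 6, and for translational efficiency 1 to 2 and 0 to 1 at 2 h and 7 h of H2O2. The remaining library of a group was assumed to vary like the other groups. Footprint counts over all genes moved most when a library was left out. With 2 h of H2O2, 201 genes became 37 to 145, and after 2 h of KCl 723 became 211 to 421. With only the groups compared these were 27 and 463. For H2O2 against KCl at 2 h, 540 became 122 to 429 (145 with only these groups). Footprint counts of the other comparisons fell from 2925 to between 1681 and 2245 at 7 h of H2O2, from 2148 to between 996 and 1381 at 7 h of KCl, from 3139 to between 1828 and 2518 between times of H2O2, and from 2170 to between 802 and 1256 between times of KCl. On log2(TPM + 1) the counts at 2 h were 45 with H2O2, 477 with KCl and 350 between agents, and without the filter 315 with H2O2. Translational efficiency ran from 586 to 1887 and from 453 to 915 (971 with all libraries) at 2 h and 7 h of H2O2, from 775 to 1305 at 2 h of KCl, and from 230 to 534 (584) at 7 h of KCl, with 642 and 221 by voom at the 7 h times.

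Groups share replicate numbers, and no label says that a number marks a shared culture or day. Deviations of same-numbered libraries correlated at -0.0531 to 0.117 in RNA. In footprints they correlated at 0.198 to 0.417 among the control, 7 h of H2O2 and both KCl groups, and at -0.384 to -0.0459 between these and 2 h of H2O2. Not every pair correlated positively, so the numbers were not taken as pairs. With the replicate block no member lost its call and Gss at 42 °C gained one (0.11; adjusted p 0.0461).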

Other observations

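Glutathione transferases and other users of glutathione, 29 of 34 tested in the H2O2/KCl experiment, split at 7 h of H2O2 into 13 higher and 7 lower (median 0.13, against 0.08 for all genes), a share called near the 70.5% of all genes (39.4% higher, 31.1% lower). Gsta1, an alpha-class transferase, rose by 4.86 (SE 0.24) on the log2 scale, from 0.66 ± 0.0283 to 18.25 ± 0.382 TPM (mean ± SD, n = 2), and Gsta4, which acts on lipid aldehydes, by 3.58 (SE 0.14), from 5.885 ± 0.9405 to 67.2 ± 10.4 TPM. Gstt3, a theta-class transferase, changed by -1.32 (SE 0.13) and Mgst3, a microsomal enzyme, by -0.91 (SE 0.12). The transferases are families of similar sequence, so the division of reads among them is uncertain. At 7 h of KCl 7 were higher and 14 lower (median -0.32), against 37.2% and 31.6% of all genes. At 44 °C 7 were higher and 15 lower of 28, against 35.4% and 35.7%, and at 42 °C 7 and 14, against 31.7% and 31.9%.

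The controls of the experiments differed in some of the same genes as Slc7a11. Chac1 was at 75.7 ± 3.66 TPM in the heat control and 14.8 ± 0.41 TPM in the H2O2/KCl control, Cth at 21.3 ± 3.30 and 9.13 ± 0.0141 TPM, Atf4 at 674.8 ± 24.1 and 371.7 ± 15.6 TPM, and Slc3a2 at 229.9 ± 15.1 and 177.4 ± 15.5 TPM (mean ± SD, n = 2 each). No test was made across experiments.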
